A study of Mus musculus with 54 samples.

Results

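The genes described here are Bahcc1, Dhrs4, Gas1, Gpr137b, Hpgd, Iba57, Inpp1 and Kmt5b, 8 of the 54232 genes counted in these mouse libraries, of which 32651 carry a symbol. They were chosen by their fold changes, all below vehicle with Cmpd60 in kidney, brain and heart of 20-month-old mice, so the 3 aged contrasts are described here without a test. In a fit of each aged tissue on its own, all 8 had an unadjusted p below 0.05 and a lower level with Cmpd60 in each tissue. This was also the case for 16 other genes, 24 in all or 0.137% of the 17536 genes tested in all 3 tissues, and the 8 are therefore part of that set and not the whole of it. By the largest of its 3 p values, Gpr137b was the last gene inside this threshold (0.0457) and Hsd17b11, which is no member, the first outside it (0.0504). With edgeR's quasi-likelihood test, none of the 8 passed an adjusted p of 0.05 in an aged tissue, where the share of all genes called lower at that threshold was 0.111% for kidney, 0.00818% for brain and 0.422% for heart. DESeq2, an alternative, called Dhrs4 in kidney, Bahcc1 and Kmt5b in brain, and Bahcc1, Hpgd, Iba57 and Kmt5b in heart, that is 1, 2 and 4 of the 8, where it called 1.18%, 1.24% and 2.15% of all genes lower. Nothing is read from either set of calls, since these contrasts chose the genes.

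Cmpd60 belongs to the benzamide class of histone deacetylase inhibitors and is directed at HDAC1 and HDAC2. Male BL6 mice of about 20 months received Cmpd60 at 22.5 mg/kg or vehicle (2% DMSO, 49% PEG400 and 49% saline) by daily intraperitoneal injection for 14 days. RNA was sequenced from kidney (6 Cmpd60-treated and 5 vehicle mice), brain (6 and 6) and heart (5 and 6). The same dose, vehicle and duration were given to male APPSWE-1349 mice on the BL6 background, about 6 to 7 months old, which carry a transgene for human amyloid precursor protein with the Swedish mutation, and to littermates. Their brains gave 4 Cmpd60-treated and 6 vehicle libraries from APPSWE mice and 5 and 5 from littermates. The promoter and insertion site of the transgene are not given in the sources used here. All groups share male sex and a BL6 background, and age and cohort cannot be told apart in any comparison of the aged with the younger mice. The labels do not say which aged tissues came from the same mouse.

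From 23584609 to 57430113 reads per library were counted on genes. Markers of the labelled tissue were present in every aged library, with summed levels of 6918 to 19155 CPM (reads of a gene per 1000000 reads of its library) for 5 proximal tubule genes in kidney, 5377 to 6691 CPM for 6 neuronal genes in brain and 48357 to 58818 CPM for 6 cardiomyocyte genes in heart. For the kidney libraries, 1 field of the labels contradicts the titles and source names on which mice were treated. The titles were followed, and under the other field every kidney difference between Cmpd60 and vehicle given here would change sign. Comparisons of vehicle kidney with other tissues would then rest on the other kidney libraries. Under the titles, of 156 genes lower at an unadjusted p below 0.05 in both brain and heart, 24 were also lower in the kidney at that threshold and 3 were higher. Of all kidney genes, 5.63% were lower at that threshold, and the share higher is not given here. This count cannot decide between the labels, because the tissues need not respond alike. In the younger brains, 5 libraries detected between 15044 and 16577 genes and the other 15 between 18122 and 24821. The fewest genes were detected in library s155 (littermate, vehicle) and library s152 (littermate, Cmpd60). Few genes detected did not mean few reads, since s140 (APPSWE, vehicle) detected 15555 genes from 55871402 reads, the most of the younger brains. Library s139 is labelled vehicle by every label and Cmpd60 by a column heading of the study. Mouse App ranged from 2035 to 2385 CPM in the 10 APPSWE libraries and from 1950 to 2267 CPM in the 10 littermate libraries, so it does not separate the genotypes. The transgene is human and was not counted as such, so this gene does not check the genotype labels.

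HDAC1 and HDAC2 remove acetyl groups from histone tails within corepressor complexes, and their inhibition raises histone acetylation, after which some genes go up and others go down. The 8 genes do not form a single pathway. Kmt5b and Bahcc1 act on chromatin, Hpgd, Dhrs4 and Inpp1 are cytosolic or peroxisomal enzymes of lipid mediators, carbonyl compounds and inositol phosphates, Iba57 works in mitochondrial iron-sulfur cluster assembly, and Gas1 and Gpr137b are membrane proteins of Hedgehog and lysosomal signalling. These roles are background and were not measured here.

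The promoters of the 4 genes whose Cmpd60 and vehicle libraries were fully apart in an aged tissue are shown so that their letters can be set side by side. Each runs over the 250 bases before the annotated start, 5′ to 3′ on the gene's strand, from RefSeq on GRCm38.p6, which need not be the build of the count files. Windows were found for 7 of the 8 genes, and Gpr137b had none in the table used. Capitals mark matches on either strand to 5 motifs, namely the TATA box TATAAA, the CCAAT box CCAAT, the GC box GGGCGG, the cyclic AMP response element core TGACG and the E-box CACGTG, none of which lies within another. Dhrs4 is at chr14:55478508-55478757 on the plus strand, Gas1 at chr13:60177536-60177785 on the minus strand, Hpgd at chr8:56294302-56294551 on the plus strand and Iba57 at chr11:59163746-59163995 on the minus strand.
Dhrs4: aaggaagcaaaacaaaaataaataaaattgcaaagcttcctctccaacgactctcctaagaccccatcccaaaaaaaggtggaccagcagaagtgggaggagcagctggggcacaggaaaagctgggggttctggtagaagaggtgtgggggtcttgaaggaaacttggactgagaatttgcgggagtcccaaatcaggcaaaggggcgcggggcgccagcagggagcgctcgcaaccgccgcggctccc
Gas1: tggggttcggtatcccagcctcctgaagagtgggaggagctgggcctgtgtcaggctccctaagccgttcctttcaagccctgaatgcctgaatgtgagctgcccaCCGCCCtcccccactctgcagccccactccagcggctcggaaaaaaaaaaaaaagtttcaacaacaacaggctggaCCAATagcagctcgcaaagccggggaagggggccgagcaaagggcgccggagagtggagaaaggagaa
Hpgd: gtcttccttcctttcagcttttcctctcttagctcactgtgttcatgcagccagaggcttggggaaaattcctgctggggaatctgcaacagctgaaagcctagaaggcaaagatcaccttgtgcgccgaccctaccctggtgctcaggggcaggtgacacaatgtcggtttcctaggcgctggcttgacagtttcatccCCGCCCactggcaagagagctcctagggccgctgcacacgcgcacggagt
Iba57: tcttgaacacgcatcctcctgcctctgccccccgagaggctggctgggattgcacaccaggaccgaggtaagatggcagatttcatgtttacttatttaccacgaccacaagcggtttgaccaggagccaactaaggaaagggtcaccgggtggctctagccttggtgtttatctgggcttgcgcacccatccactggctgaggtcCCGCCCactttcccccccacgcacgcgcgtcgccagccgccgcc

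A GC box was found in windows of 5 of the 7 genes (Gas1, Hpgd, Iba57, Inpp1 and both windows of Kmt5b), against 32.7% of 32851 promoter windows of the same length. The CCAAT box was in the windows of Bahcc1, with 3 matches, and Gas1, with 1 match, against 33.8% of all windows. A match to TGACG was found in Inpp1 alone among these genes (17.8% of all windows), and neither TATAAA (12.4%) nor CACGTG (6.02%) was found in a window of theirs. The Dhrs4 window held none of the 5. The GC content of the 8 windows ran from 55.2% to 73.2%, above the median of 52.4% over all windows. These matches are a description of letters and were not tested against the expression values.

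Kmt5b encodes a methyltransferase of lysine 20 of histone H4. In aged kidney, Kmt5b ranged from 40.7 to 62 CPM (median 53.4) with Cmpd60, against 61.8, 62.6, 63, 66.6 and 70.4 CPM with vehicle. In aged brain, Kmt5b ranged from 51.6 to 61.3 CPM (median 58.1) with Cmpd60 and from 60.5 to 69.6 CPM (median 65) with vehicle. In aged heart, Kmt5b was 31.6, 31.9, 32.8, 38.9 and 39.6 CPM with Cmpd60, against 34.9 to 46.9 CPM (median 43.7) with vehicle. The treated libraries lay below every vehicle library in 5 of 6 kidneys, 4 of 6 brains and 3 of 5 hearts, and the groups overlapped narrowly in each tissue. The fitted log2 fold changes were -0.27 ± 0.10 (SE, here and for every fold change given with ±), -0.20 ± 0.06 and -0.29 ± 0.09 in kidney, brain and heart, or 17.2%, 13% and 18.4% below vehicle. RNA of whole tissue does not tell fewer cells of a type from less RNA per cell, here or for any gene that follows.

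Bahcc1 encodes a large protein with a bromo-adjacent homology domain, a module that reads methylated histone H3. Kidney Bahcc1 ranged from 17 to 35.4 CPM (median 23.7) with Cmpd60, against 27.9, 30.8, 34.5, 36.1 and 37.7 CPM with vehicle. Brain Bahcc1 ranged from 33.9 to 41.4 CPM (median 38.5) with Cmpd60 and from 39.6 to 50.3 CPM (median 46) with vehicle. Heart Bahcc1 was 19.3, 20.7, 22.3, 23.5 and 24.3 CPM with Cmpd60, against 21.2 to 31.6 CPM (median 28.7) with vehicle. The kidney values were the most spread, with 4 of 6 treated libraries below all vehicle libraries, and in the brain 5 of 6 were. Log2 fold changes were -0.38 ± 0.17, -0.26 ± 0.06 and -0.35 ± 0.10 in kidney, brain and heart. The vehicle heart library s64, at 21.2 CPM, lay among the treated hearts and accounted for the overlap there.

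Hpgd encodes 15-hydroxyprostaglandin dehydrogenase, the enzyme that begins the inactivation of prostaglandins. Heart Hpgd was 3.33, 4.56, 5.19, 5.78 and 6.32 CPM with Cmpd60 and ranged from 6.72 to 7.91 CPM (median 7.33) with vehicle, so that the groups did not overlap. Kidney Hpgd ranged from 10.8 to 17.6 CPM (median 14.8) with Cmpd60, against 14.5, 17.9, 18.0, 19.8 and 20.5 CPM with vehicle. Brain Hpgd ranged from 3.06 to 4.49 CPM (median 3.64) with Cmpd60 and from 3.93 to 6.17 CPM (median 4.85) with vehicle. In kidney and brain the groups overlapped, with 3 of 6 and 4 of 6 treated libraries below all vehicle libraries. The log2 fold changes were -0.54 ± 0.14 in the heart, the lowest value of any member in any tissue, -0.29 ± 0.13 in the kidney and -0.38 ± 0.13 in the brain.

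Dhrs4 encodes a reductase of retinal and other carbonyl compounds of the short-chain dehydrogenase family. Kidney Dhrs4 ranged from 149.1 to 209.7 CPM (median 184) with Cmpd60, against 227, 228, 237, 273 and 303 CPM with vehicle, with no overlap. Brain Dhrs4 ranged from 8.12 to 11.3 CPM (median 10.2) with Cmpd60 and from 10.7 to 14.4 CPM (median 12.0) with vehicle. Heart Dhrs4 was 65.3, 67, 67.8, 77.2 and 84.6 CPM with Cmpd60, against 79.7 to 87.9 CPM (median 84.0) with vehicle. The treated heart s68, at 84.6 CPM, lay within the vehicle range and the other 4 lay below it. The log2 fold changes were -0.48 ± 0.11 in the kidney (28.4% below vehicle), -0.30 ± 0.09 in the brain and -0.21 ± 0.07 in the heart.

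Inpp1 encodes inositol polyphosphate 1-phosphatase, a lithium-sensitive enzyme of inositol recycling. Kidney Inpp1 ranged from 10.4 to 15.2 CPM (median 11.5) with Cmpd60, against 14.0, 14.7, 16.0, 17.3 and 17.4 CPM with vehicle. Brain Inpp1 ranged from 38.0 to 44.8 CPM (median 40.9) with Cmpd60 and from 43.2 to 46.8 CPM (median 44.8) with vehicle. Heart Inpp1 was 13.2, 16.2, 17, 17.9 and 19.0 CPM with Cmpd60, against 15.9 to 21.7 CPM (median 20.2) with vehicle. In kidney and brain 5 of 6 treated libraries lay below all vehicle libraries, but in the heart only 1 of 5 did. The log2 fold changes were -0.38 ± 0.12, -0.14 ± 0.05 and -0.23 ± 0.10 in kidney, brain and heart, and the brain value was the smallest in size of all 24.

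Iba57 encodes a mitochondrial protein needed for late steps of iron-sulfur cluster assembly. Heart Iba57 was 17.4, 19.9, 20.9, 22.1 and 24.5 CPM with Cmpd60 and ranged from 24.9 to 30.3 CPM (median 26.3) with vehicle, with no overlap. Kidney Iba57 ranged from 16.1 to 23.3 CPM (median 18.0) with Cmpd60, against 18.2, 21.7, 22.2, 23.2 and 25.1 CPM with vehicle. Brain Iba57 ranged from 6.13 to 8.72 CPM (median 6.67) with Cmpd60 and from 8.05 to 9.23 CPM (median 8.48) with vehicle. In the brain, 5 of 6 treated libraries lay below all vehicle libraries, and in the kidney 3 of 6. The log2 fold changes were -0.35 ± 0.09 in the heart, -0.25 ± 0.11 in the kidney and -0.28 ± 0.09 in the brain.

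Gas1 encodes a lipid-anchored surface protein that acts as a co-receptor for Hedgehog ligands. Kidney Gas1 ranged from 26.0 to 31.1 CPM (median 29.5) with Cmpd60, against 32.6, 33.0, 34.1, 35.1 and 42.1 CPM with vehicle, with no overlap. Brain Gas1 ranged from 8.55 to 13.8 CPM (median 10.8) with Cmpd60 and from 11.4 to 15.2 CPM (median 13.4) with vehicle. Heart Gas1 was 15, 19.9, 21.1, 21.3 and 22.2 CPM with Cmpd60, against 21.9 to 33.8 CPM (median 24.4) with vehicle. In the heart 4 of 5 treated libraries lay below all vehicle libraries, and in the brain 3 of 6. The log2 fold changes were -0.29 ± 0.09, -0.29 ± 0.10 and -0.36 ± 0.12 in kidney, brain and heart.

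Gpr137b encodes a lysosomal membrane protein that regulates the Rag GTPases of the mTORC1 pathway. Kidney Gpr137b ranged from 58.4 to 126 CPM (median 108) with Cmpd60, against 121, 123, 125, 129 and 141 CPM with vehicle. Brain Gpr137b ranged from 13.5 to 16.3 CPM (median 14.2) with Cmpd60 and from 14.7 to 17.2 CPM (median 16.8) with vehicle. Heart Gpr137b was 4.96, 5.13, 5.58, 7.37 and 7.58 CPM with Cmpd60, against 5.98 to 10.1 CPM (median 7.85) with vehicle. In the kidney 5 of 6 treated libraries lay below all vehicle libraries, of which s55, at 58.4 CPM, was far below the rest. The log2 fold changes were -0.33 ± 0.15, -0.16 ± 0.07 and -0.37 ± 0.15 in kidney, brain and heart. Gpr137b has a pseudogene copy that was not analysed here, so reads shared with it may be missing from these counts.

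**Figure D1:**
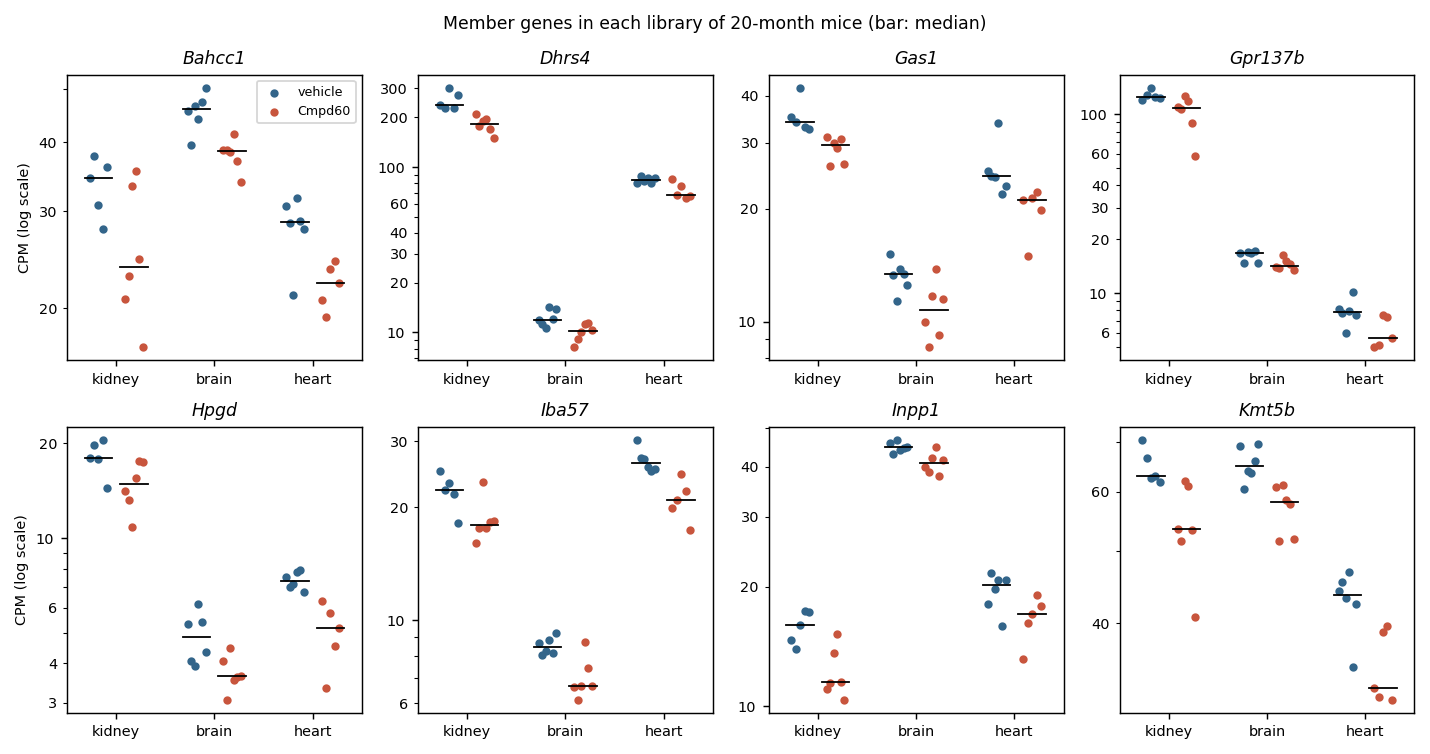
Level of each gene in every library of the 20-month mice, in CPM on a log axis, for kidney, brain and heart with vehicle (blue) and Cmpd60 (red). Bars mark medians, and the treated and vehicle libraries are fully apart for Dhrs4 and Gas1 in the kidney and for Hpgd and Iba57 in the heart.

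Across the 8 genes, the median log2 fold change was -0.31, -0.27 and -0.35 in kidney, brain and heart, beside medians over all genes tested of -8.0e-05, 0.0072 and -0.0014. The 8 ranged from -0.48 to -0.25 in kidney, -0.38 to -0.14 in brain and -0.54 to -0.21 in heart, so that each was a modest shift of 8.97% to 31.2%. Every treated library lay below every vehicle library for 2 of the 8 genes in kidney, 0 in brain and 2 in heart, where the share over all genes was 1.2%, 0.43% and 1.24%. An unadjusted p below 0.05 with a lower level was found for 5.63% of all kidney genes, 6.47% of brain genes and 6.22% of heart genes. Since these contrasts chose the genes, nothing is read from these shares.

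In the kidney, the summed level of proximal tubule markers, which does not tell fewer cells from less RNA per cell, moved with the treatment. The summed level of the 5 proximal tubule markers (Slc34a1, Lrp2, Slc5a2, Slc22a6 and Kap, none at 0) was 6918 to 14503 CPM in the Cmpd60-treated kidneys and 15016 to 19155 CPM in the vehicle kidneys. On these unscaled library sizes, used for all marker sums, the groups did not overlap. With this level added to the kidney fit, an alternative chosen after seeing the data, the log2 fold changes were 0.059 for Bahcc1, 0.19 for Gpr137b, 0.0012 for Kmt5b, -0.23 for Dhrs4, -0.13 for Gas1, -0.16 for Iba57 and -0.20 for Inpp1, and -0.52 for Hpgd in place of -0.29. In that fit 5 of the 8 genes were below vehicle, and since the marker level separates the groups completely, it cannot be told apart from the treatment. The kidney sums of 5 distal nephron markers overlapped, at 5031 to 8186 CPM with Cmpd60 and 7280 to 8995 CPM with vehicle. In the brain, summed levels of 5 cerebellar markers ran from 168 to 427 CPM with Cmpd60 and 335 to 561 CPM with vehicle, and of 5 choroid plexus markers from 211 to 906 CPM and 537 to 750.1 CPM. Their part in the brain values was not tested. In the heart the 6 cardiomyocyte markers overlapped, with 48357 to 58530 CPM against 51880 to 58818 CPM. A list of 5 astrocyte markers (Gfap, Aqp4, Aldh1l1, Slc1a3 and Gja1, the last also the gap junction gene of heart muscle; none at 0) was fully apart in the heart, at 515 to 705 CPM with Cmpd60 and 401 to 454 CPM with vehicle. The 5 endothelial markers ran from 859 to 1093 CPM with Cmpd60 and 751 to 894 CPM with vehicle, and the 5 atrial markers from 2083 to 6248 CPM and 2727 to 7137 CPM. Their part in the heart values was not tested.

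Whether the genes are also lower with Cmpd60 in brains that did not choose them was asked in the APPSWE and littermate mice. None of the 8 passed an adjusted p of 0.05 in APPSWE brain, in littermate brain or over both genotypes, and none had an unadjusted p below 0.05. In APPSWE brain 6 of the 8 log2 fold changes were below 0, in littermate brain 2 and over both genotypes 3, where 46.8%, 47.1% and 45.6% of all 23273 genes tested were below 0. The test called 0 genes (0%) in each of these comparisons with edgeR, while DESeq2 called 14 in APPSWE brain, 8 in littermate brain and 15 over both genotypes. At an unadjusted p below 0.05, edgeR found 2044, 875 and 2041 genes (8.78%, 3.76% and 8.77%). No member had every Cmpd60 library below every vehicle library, which was the case for 0.417% of all genes in APPSWE brain and 0.223% in littermate brain. The biological coefficient of variation was 0.742 in the fit of the younger brains and 0.114 in the aged brains, and each of the 8 younger intervals in these comparisons was wider than that of the same gene in aged brain.

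**Figure D2:**
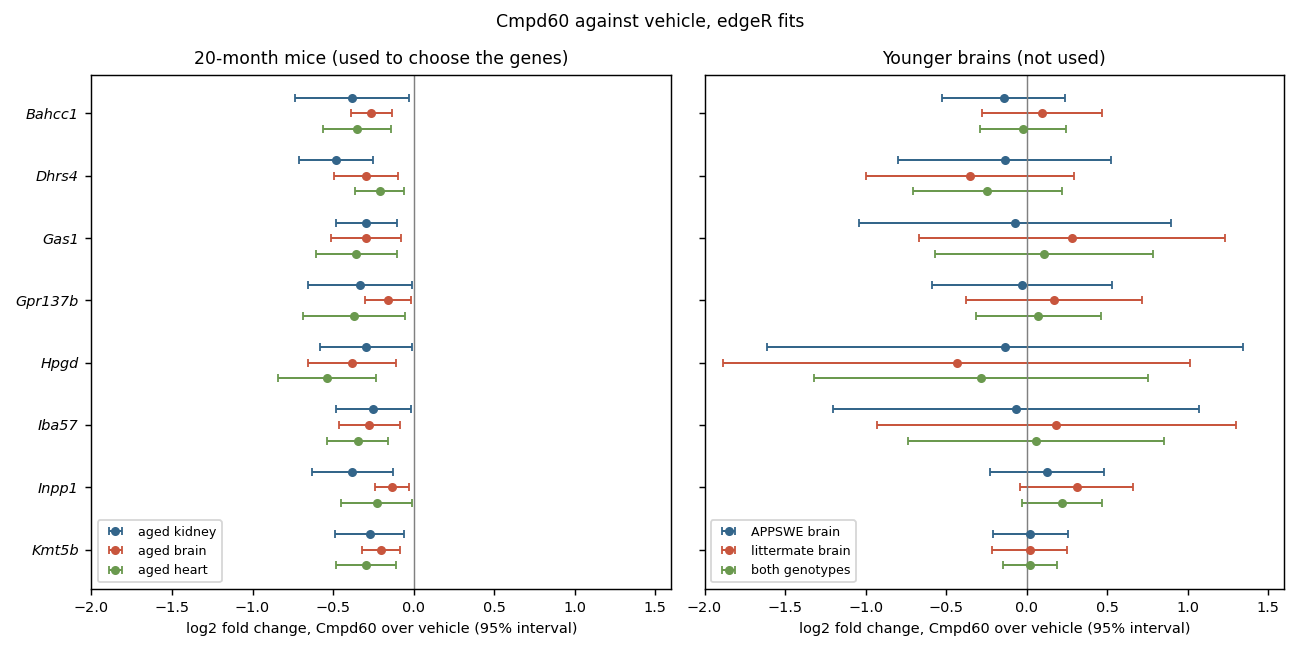
Log2 fold change of Cmpd60 over vehicle for each gene with its 95% interval, in the 3 aged tissues that chose the genes (left) and in the brains of the younger mice (right). The intervals on the right all hold 0, and the widest runs from -1.88 to 1.01 for Hpgd in littermate brain.

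Kmt5b and Inpp1 had the narrowest intervals. In APPSWE brain, Kmt5b was 63.7, 63.9, 66.3 and 76.7 CPM with Cmpd60 and ranged from 56.4 to 71.4 CPM (median 67.3) with vehicle. Littermate Kmt5b was 51.5, 60.1, 62.7, 64.9 and 76.3 CPM with Cmpd60, against 56.6, 59.3, 61.6, 64.4 and 69.7 CPM with vehicle. The groups overlapped throughout in both genotypes. Over both genotypes the log2 fold change of Kmt5b was 0.02, with a 95% interval of -0.14 to 0.19 (adjusted p = 0.998), and the aged brain value of -0.20 lies outside it. For Inpp1 the APPSWE values were 38.0, 44.8, 47.4 and 49.9 CPM with Cmpd60, against 33.9 to 54.3 CPM (median 41.0) with vehicle. Littermate Inpp1 was 39.9, 40.0, 42.4, 49.6 and 55.8 CPM with Cmpd60, against 21.1, 38.1, 40.4, 40.8 and 43.1 CPM with vehicle. The Cmpd60 median of Inpp1 lay above the vehicle median in both genotypes while the groups overlapped, and the lowest vehicle value is that of s155. Its log2 fold change over both genotypes was 0.22, with an interval of -0.03 to 0.47 (adjusted p = 0.664), and the aged brain value of -0.14 lies outside it as well. With s155 left out, the log2 fold change of Inpp1 was 0.15 over both genotypes, and 0.17 in place of 0.31 in littermate brain. The aged value was selected for being low, and the difference between the cohorts was not tested.

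For the other 6 genes, the interval over both genotypes held both 0 and the aged brain value. APPSWE Bahcc1 was 30.8, 33.3, 41.9 and 45.8 CPM with Cmpd60, against 34.5 to 51.6 CPM (median 42.2) with vehicle. Littermate Bahcc1 was 29.5, 33.5, 38.1, 42.4 and 60.8 CPM with Cmpd60, against 28.9, 35.1, 39.1, 39.5 and 48.6 CPM with vehicle. The ranges overlapped in both, with a log2 fold change over both genotypes of -0.02 (-0.29 to 0.24). APPSWE Dhrs4 was 7.97, 8.74, 9.95 and 10.1 CPM with Cmpd60, against 9.10 to 11.5 CPM (median 9.87) with vehicle. Littermate Dhrs4 was 3.08, 7.87, 9.34, 10.1 and 10.6 CPM with Cmpd60, against 8.02, 9.89, 10.1, 11.6 and 12.7 CPM with vehicle. The groups overlapped in both genotypes, and the lowest treated value is that of s152. The log2 fold change of Dhrs4 was -0.24 (-0.71 to 0.22) over both genotypes, and -0.14 with s152 left out. In littermate brain Dhrs4 was at -0.35, and at -0.14 without s152. Dhrs4 and Hpgd were the members with a fitted log2 fold change below 0 in each genotype. For Hpgd in APPSWE brain, however, the median was higher with Cmpd60 (4.79 CPM) than with vehicle (3.66 CPM). Its fitted value of -0.13 there turned above 0 in 3 of 10 fits that left out 1 library.

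APPSWE Hpgd was 2.23, 4.15, 5.43 and 5.67 CPM with Cmpd60, against 0.952 to 9.69 CPM (median 3.66) with vehicle. Littermate Hpgd was 2.28, 2.84, 3.75, 3.90 and 5.95 CPM with Cmpd60, against 0.0402, 5.18, 6.15, 6.20 and 7.71 CPM with vehicle. In the littermates 4 of the 5 vehicle libraries thus stood above 4 of the 5 treated ones, and s155 stood near 0, with 1 count. The log2 fold change over both genotypes was -0.28, with an interval of -1.32 to 0.75 that was the widest of the 8. APPSWE Iba57 was 4.14, 5.18, 6.38 and 7.30 CPM with Cmpd60, against 2.63 to 14.1 CPM (median 4.47) with vehicle. Littermate Iba57 was 4.45, 4.99, 5.81, 6.48 and 10.9 CPM with Cmpd60, against 0.523, 5.47, 6.40, 6.86 and 9.46 CPM with vehicle. The groups overlapped, with 0.06 (-0.74 to 0.85) over both genotypes.

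APPSWE Gas1 was 8.08, 9.80, 10 and 11.9 CPM with Cmpd60, against 7.33 to 12.5 CPM (median 10.9) with vehicle. Littermate Gas1 was 9.19, 9.19, 9.79, 9.90 and 11.9 CPM with Cmpd60, against 0.281, 7.73, 10.7, 10.7 and 11.7 CPM with vehicle. The value of 0.281 CPM is again s155, and with that library left out the littermate log2 fold change of Gas1 was -0.03 in place of 0.28. Over both genotypes it was 0.10 (-0.57 to 0.78). APPSWE Gpr137b was 12.2, 15.7, 16.3 and 18.0 CPM with Cmpd60, against 7.05 to 24.2 CPM (median 16.4) with vehicle. Littermate Gpr137b was 15.5, 16.5, 17, 17.6 and 25.6 CPM with Cmpd60, against 11.7, 16.0, 16.3, 17.6 and 20.2 CPM with vehicle. The treated values lay within or above the vehicle values, with 0.07 (-0.32 to 0.46) over both genotypes.

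**Figure D3:**
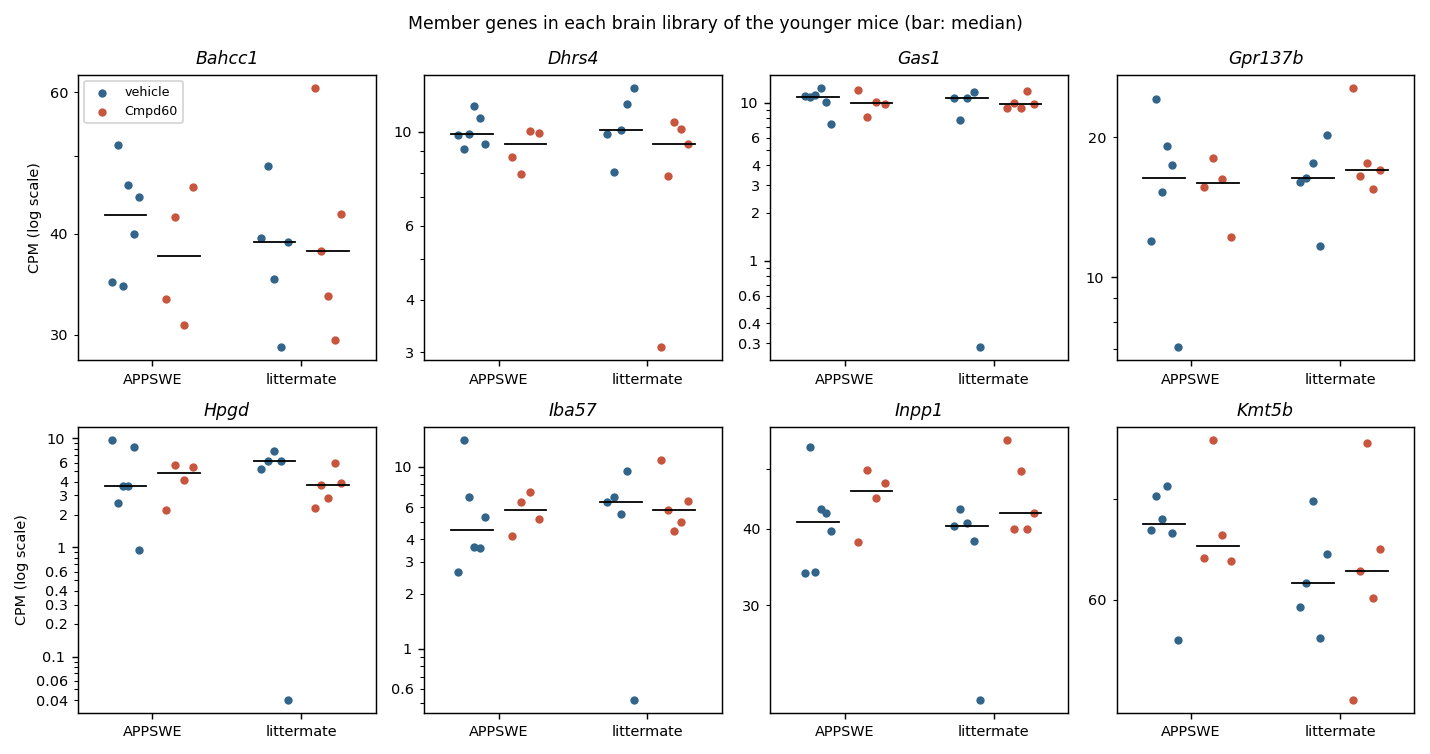
Level of each gene in every brain library of the APPSWE mice and littermates, in CPM on a log axis, with vehicle (blue) and Cmpd60 (red). Bars mark medians, and the groups overlap for every gene, with the littermate vehicle library s155 lowest for Gas1, Hpgd, Iba57 and Inpp1.

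These counts moved with the libraries of low detection. With both littermate libraries s152 and s155 left out, chosen after seeing the data, 4 of the 8 genes were below 0 in littermate brain and 5 over both genotypes. With only the libraries of at least 17000 detected genes, 5 were below 0 in littermate brain. The 6 genes below 0 in APPSWE brain became 4 without s140 and 7 without s146. No member passed an adjusted p of 0.05 in any of these fits. With s139 counted as Cmpd60-treated, Hpgd was 0.51 in APPSWE brain in place of -0.13. The difference in the effect of Cmpd60 between the genotypes was tested as an interaction, which called none of the 8 genes and 0 (0%) of all genes, while 1116 genes (4.8%) had an unadjusted p below 0.05 and DESeq2 called 9. Between APPSWE and littermate brains with vehicle, none of the 8 was called, where 0.00859% of all genes were.

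The 3 tissues differ widely in how much of these genes they express, which was tested between vehicle libraries in a fit of all 34 aged libraries. The vehicle kidneys are those named by the titles. Brain against kidney, 7 of the 8 differed at an adjusted p of 0.05, where 72.5% of all genes did. Heart against kidney, 5 of 8 differed (56.7% of all genes), and brain against heart, 6 of 8 (72.1%). The median over all genes was 0.24, -0.02 and 0.44 on the log2 scale in these comparisons.

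Dhrs4 and Gpr137b were the genes with the strongest preference for kidney. The log2 difference of Dhrs4 was -4.53 ± 0.11 for brain against kidney (adjusted p = 6.07e-29) and -1.19 ± 0.10 for heart against kidney (2.01e-13), giving the order kidney, heart, brain. Gpr137b was lower by -3.15 ± 0.13 in brain (1.45e-21) and -3.60 ± 0.14 in heart (1.19e-22) than in kidney. Its brain level stood above heart by 0.45 ± 0.13 (0.00244), near the median of 0.44 over all genes in that comparison. Hpgd followed the order of Dhrs4, with -2.06 ± 0.14 for brain against kidney (2.82e-15) and -0.89 ± 0.14 for heart against kidney (1.05e-06). Both enzymes were thus lowest in the brain.

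Gas1 was lower in brain than in kidney by -1.59 ± 0.12 (adjusted p = 1.91e-14), whereas heart and kidney differed by -0.06 ± 0.12 (0.709), a direction that turned to 0.0045 with DESeq2 size factors. Iba57 was highest in heart, by 0.68 ± 0.10 over kidney (2.35e-07), and lowest in brain, by -1.54 ± 0.10 against kidney (5.10e-16). Inpp1 was highest in brain, by 1.33 ± 0.10 over kidney (2.10e-14) and 0.62 ± 0.09 over heart (3.02e-07). The chromatin genes varied least. Kmt5b passed the threshold in no pair (adjusted p from 0.0819 to 0.80), with 95% intervals that lay between -0.37 and 0.20. Bahcc1 differed only between brain and kidney (0.28 ± 0.13, adjusted p = 0.048), a call lost in 8 of 11 fits that left out 1 library. That value is near the median of 0.24 over all genes in the same comparison.

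The genes were also compared within groups, by the correlation of their log2 CPM after each group's mean was subtracted. Of the 28 pairs, 23 had a Pearson r above 0 over the 34 aged libraries, with a median of 0.27 and a range of -0.28 to 0.68. Within the 12 aged brain libraries all 28 pairs were above 0 (median 0.37), within the 11 kidney libraries 20 (median 0.31) and within the 11 heart libraries 23. By rank (Spearman), aged brain pairs also fell below 0, such as Bahcc1 with Hpgd (-0.24) and Bahcc1 with Gas1 (-0.11). The share above 0 over all gene pairs was not computed, so nothing is read from these counts. Over the 34 aged libraries, the highest Pearson r was that of Bahcc1 with Gpr137b (0.68), followed by Bahcc1 with Kmt5b (0.66). Over these 34 libraries Hpgd had an r of -0.02 with the mean of the others, while Kmt5b had 0.73. The Hpgd values differed by tissue. In kidney every Hpgd pair was below 0 (lowest -0.56, with Gpr137b), and in aged brain every one was above 0 (highest 0.54, with Gpr137b). In heart they ran from -0.38 (Inpp1) to 0.60 (Gas1). In the 20 younger brain libraries 15 of 28 pairs were above 0 (median 0.01), and the highest pairs there, such as Gas1 with Hpgd (0.88) and Iba57 with Inpp1 (0.82), share the low values of s155. The lowest pair there was Bahcc1 with Dhrs4 (-0.68). Such correlations describe libraries that share tissue and depth, and they were given no test.

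**Figure D4:**
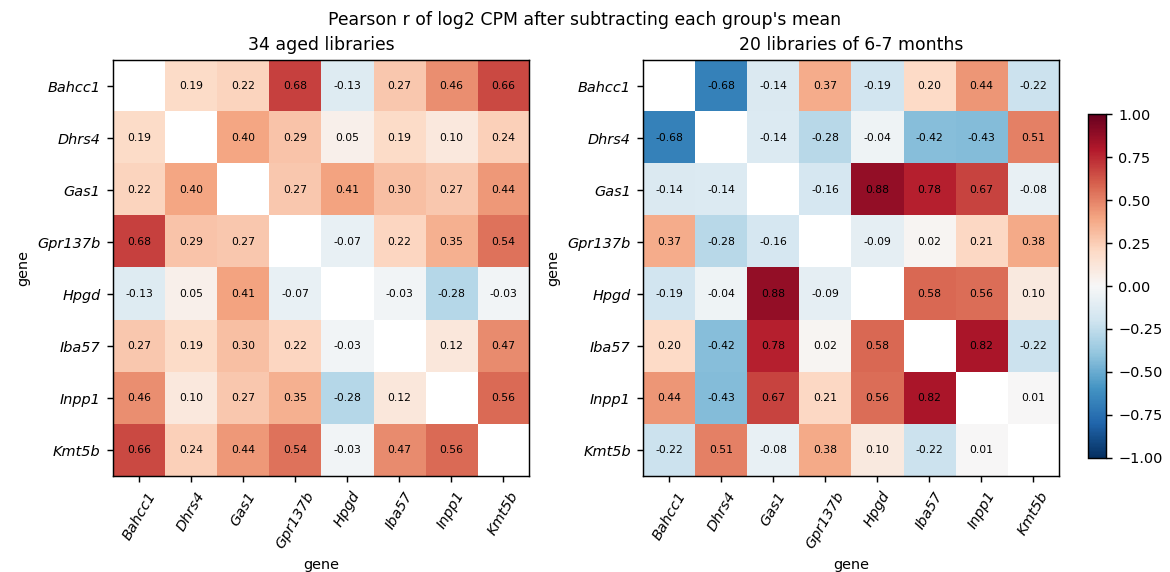
Pearson r between each pair of genes after each group's mean log2 CPM was subtracted, over the 34 aged libraries (left) and the 20 libraries of 6 to 7 months (right). The 5 aged pairs below 0 all involve Hpgd, and the highest pairs on the right are among Gas1, Hpgd, Iba57 and Inpp1, while Bahcc1 with Dhrs4 is the lowest at -0.68.

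By this measure, the genes most like the mean of the 8 over the 34 aged libraries, among 11995 with at least 1 CPM on average in each tissue, were Klhl21 (r = 0.78), Tbc1d17 (0.74), Abhd3 (0.74), Foxo4 (0.73) and Casd1 (0.73). The fitted log2 fold changes of Klhl21, Tbc1d17, Foxo4 and Casd1 with Cmpd60 were below 0 in all 3 aged tissues, between -0.40 (Tbc1d17 in heart) and -0.0087 (Tbc1d17 in brain), and Abhd3 stood at -0.56 in kidney, -0.09 in brain and 0.22 in heart. These libraries also chose the 8 genes.

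The pathways around the 8 genes were described by 8 lists of other genes, with 116, 116 and 114 tested in kidney, brain and heart. None of them was called lower in an aged tissue, where 0.111%, 0.00818% and 0.422% of all genes were, and 2, 0 and 3 were called higher, where 0.188%, 0.0123% and 0.756% were. Among 14 genes of prostaglandin synthesis and breakdown, the neighbours of Hpgd, 2 were called higher in the kidney and 0 lower. The list did not move 1 way, with 6 of the 14 below vehicle. At an unadjusted p below 0.05 by the same test, 3 were higher and 2 lower. Cbr1, a carbonyl reductase that acts on prostaglandins, stood at 136 ± 33.4 CPM in the treated kidneys (SD, n = 6) and 61.1 ± 12.0 CPM in the others (SD, n = 5) (log2 fold change 1.16 ± 0.17, adjusted p = 0.00679 by edgeR's quasi-likelihood test over all genes). Abcc4, an exporter of prostaglandins and cyclic nucleotides, stood at 138.5 ± 15.9 CPM in treated (SD, n = 6) and 99.5 ± 7.14 CPM in vehicle kidneys (SD, n = 5), with edgeR's adjusted p = 0.0384. Both ranges were apart, from 100.4 to 180.5 CPM against 50.7 to 78.3 CPM for Cbr1, but the call of Abcc4 was lost in 8 of 11 fits that left out 1 library. With the proximal tubule level in the fit, the log2 fold change was 0.68 for Cbr1 and 0.61 for Abcc4, the latter above its value of 0.48 without it, and neither was called (edgeR's adjusted p = 0.26 and 0.0956).

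In the heart, 1 gene of this list rose, Slco2a1, the prostaglandin transporter, at 9.48 ± 0.758 CPM in treated (SD, n = 5) and 6.92 ± 0.816 CPM in vehicle hearts (SD, n = 6). Its call was close to the threshold (adjusted p = 0.0484) and was lost in 10 of 11 fits that left out 1 library. Of the 17 listed short-chain dehydrogenases of retinoid and steroid metabolism, the family of Dhrs4, Hsd11b1, which reactivates glucocorticoids, rose in the heart (31.6 ± 6.20 against 20.6 ± 2.84 CPM, edgeR's adjusted p = 0.0259). That call was lost in 6 of 11 fits that left out 1 library. The list leaves out Hsd17b11, also a short-chain dehydrogenase, with log2 fold changes of -0.55 in kidney, -0.11 in brain and -0.68 in heart. Its unadjusted p in the heart was 5.6e-05 by edgeR's quasi-likelihood test, so the list does not stand for the whole family. Of the 16 lysosomal regulators of mTORC1, the setting of Gpr137b, Rragd, a Rag GTPase, rose in the heart (203 ± 7.33 against 151.2 ± 14.2 CPM, edgeR's adjusted p = 0.0103). The groups did not overlap for Rragd, from 194 to 214 CPM against 128 to 169 CPM, and its call held in each of 11 fits that left out 1 library.

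The other lists had no called gene in an aged tissue, namely Hedgehog signalling around Gas1 (14 genes), inositol phosphate metabolism around Inpp1 (17), iron-sulfur cluster assembly around Iba57 (16), histone lysine methyltransferases around Kmt5b (11) and Polycomb and bromo-adjacent homology genes around Bahcc1 (11). Their median log2 fold changes lay between -0.12 and 0.18 in the aged tissues, the outermost both from the Hedgehog list, which was -0.12 in the brain and 0.18 in the heart. In the younger brains no gene of the 8 lists was called in either genotype or over both.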

How the data were processed

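Per the labels and the study's methods, the authors captured mRNA on oligo-dT beads, made strand-specific libraries, trimmed reads with Trimmomatic 0.32, aligned them with HISAT2 2.1.0 and counted them on Ensembl genes with HTSeq 0.11.0, taking read direction into account. The deposited values are raw counts per gene, without normalization, and the genome build is not given in the sources used here. Each of the 54 libraries lists 54232 genes and 5 summary lines, which held 15.4% to 22.1% of reads and were left out. Symbols were paired with 32651 genes, of which 2626 had an outdated one replaced, and Kmt5b and Iba57 were found under older symbols. No 2 libraries held identical counts.

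A gene was tested if 3 or more of the fitted libraries held over 2 of its reads. After TMM normalization, edgeR 4.0.16 in R 4.3.3 gave quasi-likelihood tests, with Benjamini-Hochberg adjustment over all genes tested. Each aged tissue was fitted alone, the 20 younger brains together and the 34 aged libraries together for vehicle levels between tissues, as if from separate mice. CPM were computed on TMM-scaled library sizes, with a prior count of 2 on the log2 scale. The summed marker levels and the proximal tubule covariate are the exception and used unscaled library sizes. The smallest library allows up to 0.127 CPM behind a count of 0 (3 counts, counting error only). P values set a difference between groups against the spread between these libraries. DESeq2 1.42.0 and limma 3.58.1 (voom) served as alternatives, beside other size factors, other filters, libraries left out, s139 regrouped and covariates. Scripts were tested on simulated data.

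Genes named beyond the 8 are those of the pathway lists that passed an adjusted p of 0.05 (up to 3 per list and tissue), the 5 most alike in residual log2 CPM, and App. Hsd17b11 is named as the first gene outside the threshold and as a gene that the lists leave out. The members and lists were chosen with earlier results of these data known. Promoters are from RefSeq (GRCm38.p6) and figures were drawn with matplotlib 3.10.9.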

Additional observations from a re-analysis of the deposited data

Results flagged for a closer look

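Among 80 groups of libraries of the 8 genes, 10 held a value whose gap to its nearest neighbour was large for the group's range by Dixon's criterion, which chance alone meets in about 1 in 20 groups. In aged heart with vehicle, Bahcc1 was lowest in s64 at 21.2 CPM (others 27.8 to 31.6), Gas1 highest in s65 at 33.8 CPM (others 21.9 to 25.2) and Kmt5b lowest in s66 at 34.9 CPM (others 42.5 to 46.9). In aged kidney, Gas1 was highest in the vehicle library s47 at 42.1 CPM (others 32.6 to 35.1) and Iba57 highest in the Cmpd60 library s52 at 23.3 CPM (others 16.1 to 18.3). In littermate brain with Cmpd60, Gas1 was highest in s157 at 11.9 CPM (others 9.19 to 9.90) and Gpr137b highest in s152 at 25.6 CPM (others 15.5 to 17.6). In littermate brain with vehicle, Inpp1 was lowest in s155 at 21.1 CPM (others 38.1 to 43.1). In APPSWE brain with vehicle, Iba57 was highest in s140 at 14.1 CPM (others 2.63 to 6.84) and Kmt5b lowest in s146 at 56.4 CPM (others 66.4 to 71.4). The libraries s140, s146, s152 and s155 are 4 of the 5 younger brains with the fewest genes detected, and the part of this in their values was not tested.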

How the results depend on the processing

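No paired analysis was possible because the library numbers are unique and pair no samples. The 8 genes kept their direction in every aged tissue under every alternative except the proximal tubule covariate in the kidney, where 5 stayed below vehicle and Bahcc1 (0.059), Gpr137b (0.19) and Kmt5b (0.0012) turned and Hpgd went to -0.52. DESeq2 called 1, 2 and 4 of the 8 in kidney, brain and heart, at adjusted p from 0.0024 (Dhrs4, kidney) to 0.035 (Kmt5b, brain), and with edgeR 1 library left out gave a call to Iba57 in heart (without s70, adjusted p = 0.041) and to Bahcc1 in heart (without s64, 0.035). All 8 met an unadjusted p below 0.05 in the 3 tissues in the main analysis, 4 to 8 with 1 library left out, lowest without kidney libraries s45, s46 or s51, and 1 with that covariate. These contrasts chose the 8 genes, so nothing is read from their directions or calls here. Genes called at an adjusted p of 0.05 numbered 62 in aged kidney (429 with DESeq2, 94 with no filter, 14 with the covariate, 20 to 131 with 1 library left out), 5 in aged brain (429 with DESeq2, 2 with limma-voom, 102 with no filter, 1 to 372 with 1 library left out) and 229 in aged heart (746 with DESeq2, 36 to 247 with 1 library left out). The cause was not tested.

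No member was called in the younger brains or between genotypes under any alternative. Genes called there were 0 in APPSWE brain (14 with DESeq2, 9 with no filter, 1 with only the 2 groups compared), 0 in littermate brain (8 with DESeq2, 2 with no filter, 1 without s152 and s155, 1 with at least 17000 genes detected, 0 to 2 with 1 library left out), 0 over both genotypes (15 with DESeq2, 11 with no filter, 1 with s139 as treated, 1 with genes detected as a covariate, 0 to 1 with 1 left out), 0 for the interaction (9 with DESeq2, 2 with no filter, 1 without s152 and s155, 0 to 1 with 1 left out) and 2 between genotypes (28 with DESeq2, 8 with at least 17000 genes detected, 1 to 3 with 1 left out). Members below 0 in littermate brain were 1 with limma-voom, 5 with at least 17000 genes detected, 4 without s152 and s155 and 2 to 4 with 1 library left out (4 without s152). Over both genotypes they were 5 without s152 and s155 and 2 to 5 with 1 left out, and between genotypes 1 to 3. In APPSWE brain members below 0 were 6 in the main analysis, 4 to 7 with 1 library left out and 4 to 6 under the other alternatives.

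Uncalled log2 fold changes of the younger brains turned as follows. In APPSWE brain, Hpgd was 0.37 with limma-voom, 0.51 with s139 as treated and 0.20 without s139. With genes detected as a covariate Gpr137b was 0.092, Iba57 0.073 and Kmt5b -0.032, and with at least 17000 genes detected Bahcc1 was 0.023 and Iba57 0.59. In littermate brain, Hpgd was 0.37 with limma-voom and Kmt5b -0.022 with the covariate. With at least 17000 genes detected Bahcc1 was -0.086, Gas1 -0.0021 and Iba57 -0.37, and without s152 and s155 Bahcc1 was -0.084 and Iba57 -0.37. Over both genotypes, Hpgd was 0.37 with limma-voom and 0.037 with s139 as treated. Iba57 was -0.10 with s139 as treated and -0.018 without it, and with the covariate Bahcc1 was 0.055 and Kmt5b -0.027. With at least 17000 genes detected Gas1 was -0.14, and without s152 and s155 Gas1 was -0.036 and Iba57 -0.22.

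With 1 library left out, APPSWE values ranged from -0.17 to 0.017 for Gas1, -0.18 to 0.13 for Gpr137b, -0.35 to 0.20 for Hpgd, -0.22 to 0.39 for Iba57 and -0.042 to 0.051 for Kmt5b. Littermate values ranged from -0.091 to 0.20 for Bahcc1, -0.029 to 0.44 for Gas1, -0.11 to 0.44 for Iba57 and -0.059 to 0.082 for Kmt5b. Values over both genotypes ranged from -0.12 to 0.026 for Bahcc1, -0.051 to 0.18 for Gas1, -0.0034 to 0.15 for Gpr137b, -0.089 to 0.28 for Iba57 and -0.018 to 0.053 for Kmt5b. Between vehicle tissues, Gas1 in heart against kidney was 0.0045 with DESeq2 size factors in edgeR and 0.0045 with DESeq2, and -0.16 to 0.020 with 1 library left out, and Kmt5b in brain against heart was -0.039 to 0.058. The call of Slco2a1 was lost with DESeq2 size factors, limma-voom and no filter.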
